A study of Mus musculus with 3 samples.

Results

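Tumor-infiltrating pmel T cells were compared between 2 libraries that differed in how the cells had been cultured before transfer, with sIL-2 alone or with sIL-2 + IL-21. The genes described are the 7596 of 33696 that reached at least 10 CPM in either library. Levels were unique molecular identifiers (UMIs, each marking a captured RNA molecule) summed over all kept cells of a library and scaled to an equal library total (CPM). A kept cell had at least 500 and at most 120000 UMIs, with at most 20% of them from mitochondrially encoded genes. That left 7760 of 7805 cells with sIL-2 and 9798 of 9871 cells with sIL-2 + IL-21, so 17558 of the 30857 kept cells of the series entered the comparison.

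The cells came from Thy1.1+ pmel-1 mice, whose T cell receptor transgene recognizes the melanocyte antigen gp100. Splenocytes of both groups were stimulated with gp100 peptide and 10 nM cytokine at the start of culture and then kept in 10 nM cytokine until day 6, and the cells were given intravenously to Thy1.2+ C57BL/6 mice, bought at 5 to 6 weeks of age, that carried subcutaneous B16F10 tumors, a transplantable mouse melanoma. The hosts had been lymphodepleted with 6 Gy on day 5 after tumor injection. In both groups the mice then received sIL-2 *in vivo*, 4 doses of 2.5 μg, so that IL-21 was added during preconditioning only. The library of cells preconditioned and treated with the IL-2/21-Trikine is cited only for reference. Tumors were taken on day 18 and live Thy1.1+CD8+ cells were sorted. The number of mice in a library was not found, and cells outside the sorted donor fraction were not measured. Preconditioning and library cannot be told apart with 1 library a side. No test between conditions was therefore made. Intervals are exact 95% intervals and cover counting error only.

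IL-2 and IL-21 both signal through receptors that contain the common gamma chain. IL-2 acts mainly through STAT5 and favors effector differentiation and growth, whereas IL-21 activates STAT3 more strongly and is known for holding CD8+ T cells in a less differentiated state during culture. Type I interferon acts through STAT proteins on interferon-stimulated response elements in the promoters of antiviral genes, and metallothioneins are small proteins that bind zinc and copper and whose genes respond to these metals.

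The kept cells held 130200802 UMIs for sIL-2 and 168041089 for sIL-2 + IL-21, with medians of 12882.5 and 14055.5 UMIs per cell and 1.28% and 1.36% mitochondrial UMIs. Of the kept cell barcodes, 18 occurred in both libraries, 0.232% and 0.184% of each. All 9 T cell markers checked were above 10 CPM in both, and Trbv14, the variable segment that dominated, made up 98.0% and 98.1% of beta chain variable segment UMIs. The 8 melanoma markers summed to 7.06 and 2.61 CPM, the 6 B cell markers to 19.6 and 11.3 CPM, and the 16 myeloid markers to 147 and 209 CPM, of which Cst3 alone held 104 and 182 CPM. The other 15 summed to 42.3 and 27.3 CPM. Malat1, a nuclear RNA, was at 4300 CPM for sIL-2 and at 2407 CPM for sIL-2 + IL-21, and the longest 25% of genes had a median log2 ratio of -0.27 against 0.10 in the shortest 25%. The part of this length trend in the results was not tested. Fewer cells of a kind and less RNA per cell cannot be told apart in summed counts.

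Promoters of 3 interferon-stimulated and 2 metallothionein genes are shown because these genes were among those with the largest ratios. They are RefSeq windows of build GRCm38.p6, from 250 bases before to 50 bases after the annotated gene start, written in the direction of the gene, while the deposited counts were made on the later build GRCm39 by the methods. Capitals in the windows of *Rsad2* (chr12:26456403-26456702, minus strand), *Ifit3* (chr19:34583279-34583578, plus strand) and *Ifit1* (chr19:34640639-34640938, plus strand) mark the interferon-stimulated response element, searched on both strands as GAAA, any 2 bases and GAAA again. Here every match lies on the opposite strand and starts and ends with TTTC.
Rsad2: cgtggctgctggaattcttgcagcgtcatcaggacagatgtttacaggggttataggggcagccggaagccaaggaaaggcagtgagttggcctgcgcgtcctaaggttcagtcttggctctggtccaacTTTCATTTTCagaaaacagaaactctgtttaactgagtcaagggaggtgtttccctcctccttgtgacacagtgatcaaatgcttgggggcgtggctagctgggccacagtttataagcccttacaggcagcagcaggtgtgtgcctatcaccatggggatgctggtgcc
Ifit3: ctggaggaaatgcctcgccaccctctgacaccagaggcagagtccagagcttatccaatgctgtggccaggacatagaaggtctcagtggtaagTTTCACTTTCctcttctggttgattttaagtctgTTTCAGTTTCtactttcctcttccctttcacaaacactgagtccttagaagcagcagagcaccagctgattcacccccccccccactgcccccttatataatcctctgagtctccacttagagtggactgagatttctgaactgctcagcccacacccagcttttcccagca
Ifit1: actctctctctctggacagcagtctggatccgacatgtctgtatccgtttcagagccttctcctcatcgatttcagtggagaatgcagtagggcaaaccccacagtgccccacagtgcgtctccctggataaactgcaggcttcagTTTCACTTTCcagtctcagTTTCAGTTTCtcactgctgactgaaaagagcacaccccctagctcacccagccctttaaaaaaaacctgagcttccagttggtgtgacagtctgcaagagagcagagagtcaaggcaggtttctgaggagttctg
Capitals in the windows of *Mt1* (chr8:94178839-94179138, plus strand) and *Mt2* (chr8:94172368-94172667, plus strand) mark the core of the metal response element, searched as TGCNCNC on both strands.
Mt1: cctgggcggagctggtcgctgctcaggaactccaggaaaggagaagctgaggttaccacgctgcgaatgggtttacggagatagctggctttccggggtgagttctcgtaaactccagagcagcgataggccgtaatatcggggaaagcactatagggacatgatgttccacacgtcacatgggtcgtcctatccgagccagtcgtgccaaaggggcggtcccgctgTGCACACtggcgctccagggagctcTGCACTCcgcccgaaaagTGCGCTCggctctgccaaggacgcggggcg
Mt2: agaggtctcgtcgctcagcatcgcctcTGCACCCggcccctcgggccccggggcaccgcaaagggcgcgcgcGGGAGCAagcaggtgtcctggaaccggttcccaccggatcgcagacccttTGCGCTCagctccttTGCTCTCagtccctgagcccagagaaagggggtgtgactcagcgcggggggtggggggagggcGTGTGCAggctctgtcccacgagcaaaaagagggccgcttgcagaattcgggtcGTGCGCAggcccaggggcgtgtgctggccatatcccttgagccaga

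Most genes differed little. The median log2 ratio of sIL-2 + IL-21 over sIL-2 was -0.08, the central 90% of genes lay between -0.68 and 0.53, and the median size of the ratio was 0.228. A log2 ratio of 1 or more, which is a doubling, was reached by 66 genes higher with sIL-2 + IL-21, 0.869% of the 7596, and by 128 genes lower, 1.69%. At a log2 ratio of 0.5 or more, 429 genes were higher, 5.65%, and 784 were lower, 10.3%. Counts of list members past either size below are to be read against these shares. The larger number on the lower side depended on the scaling. With TMM scaling, which moved the median of all genes to 0.03, 102 genes were higher and 96 lower by 1 or more, so higher genes made up 51.5% of the calls in place of 34.0%. That scaling raises every log2 ratio by the same amount, so small ratios below are to be read against the median of all genes. Of the 7596 genes, 40.6% had a log2 ratio above 0 and 59.4% below it, the shares against which counts of either sign are to be read. For 45 of the 66 higher genes and 112 of the 128 lower genes, the IL-2/21-Trikine library lay between the other two, as it did for 51.9% of all 7596 genes. A wide gap between the other two, by which these genes were chosen, leaves more room between them.

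**Figure D1:**
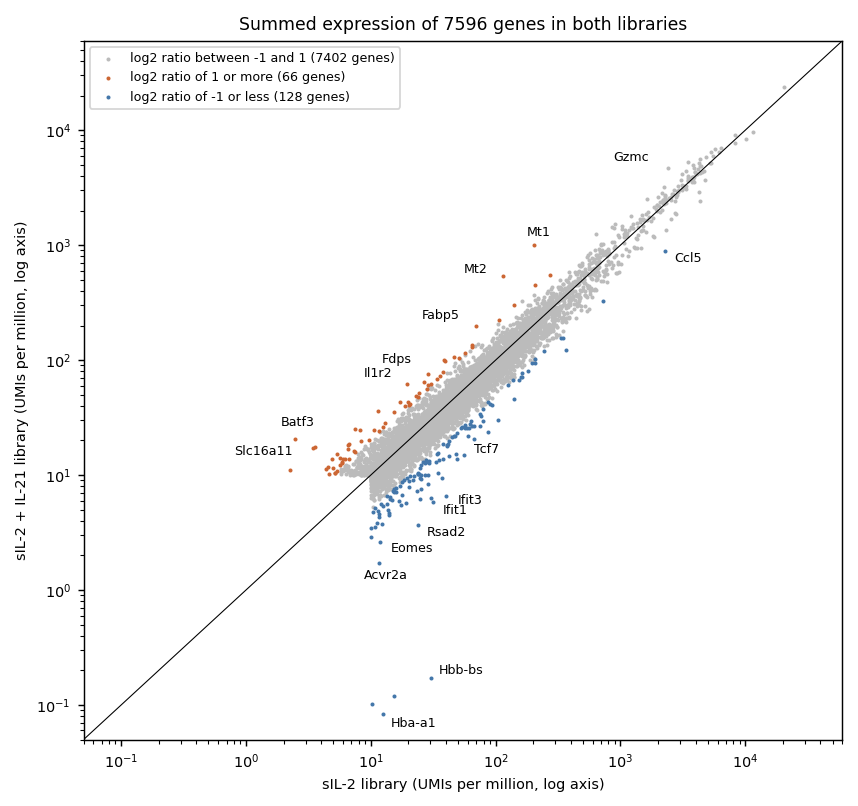
Level of each of the 7596 genes in CPM for sIL-2 (x axis) and for sIL-2 + IL-21 (y axis), both on log axes, with the line of equal level. The 66 genes higher by a log2 ratio of 1 or more (orange) and the 128 lower (blue) lie at the edges of a narrow band, and the hemoglobin genes far below it came almost wholly from a single cell.

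The 4 largest differences on the lower side belonged to hemoglobin genes and traced to a single cell. Hbb-bs was at 30.5 CPM for sIL-2 and at 0.173 CPM for sIL-2 + IL-21. Of 8972 hemoglobin and Alas2 UMIs with sIL-2, 8814 lay in 1 cell of 10313 UMIs, 98.2%. Without the 1 cell in each library that held at least 10 such UMIs, the counts were 65 genes higher and 124 lower by a log2 ratio of 1 or more. These genes are not considered further.

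The gene with the largest difference toward sIL-2 + IL-21 was *Batf3*, a basic leucine zipper transcription factor of the BATF family. It was at 2.48 CPM for sIL-2 and at 20.6 CPM for sIL-2 + IL-21, a log2 ratio of 3.05 (2.89 to 3.22). The IL-2/21-Trikine library had 2.28 CPM, so that *Batf3* stood out in 1 of the 3 libraries. The other members of the effector and exhaustion transcription factor list did not share this. Of its 23 members, *Batf3* alone was higher by 0.5 or more, and 7 were lower by as much, against 5.65% and 10.3% of all genes. *Batf* itself was at 43.5 and 41.1 CPM, a log2 ratio of -0.08.

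Metallothionein genes formed the most abundant part of the higher set. *Mt1* was at 204 CPM for sIL-2 and at 1010 CPM for sIL-2 + IL-21, a log2 ratio of 2.31 (2.29 to 2.33). *Mt2* was at 116 and 536 CPM, a log2 ratio of 2.21 (2.19 to 2.24). In both, the level was more than 4 times as high with sIL-2 + IL-21, while the IL-2/21-Trikine library, at 192 and 91.2 CPM, lay below both. *Mt3* stayed under 10 CPM, at 2.33 and 9.30 CPM, and had a log2 ratio of 2.00 (1.82 to 2.18). Other genes of zinc handling that reached 10 CPM did not follow. Of the 12 genes listed, 7 reached that level, *Mt1* and *Mt2* among them. *Mtf1*, the transcription factor that senses zinc, was at 17.9 and 17.5 CPM, and the importers *Slc39a6*, *Slc39a10* and *Slc39a14* and the exporter *Slc30a5* had log2 ratios between -0.13 and 0.01. The motif marked in the *Mt1* and *Mt2* windows, with 3 and 6 matches, is short and was present in 63.5% of the 6094 tested genes with a window, and in 66.0% of those higher by 1 or more.

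The metallothionein difference was largest among the cells with the most such UMIs. Each cell was drawn down at random to 5000 UMIs, which left out 481 shallower cells of the sIL-2 library and 907 of the other. The median cell then held 0 UMIs of *Mt1* and *Mt2* for sIL-2 and 1 for sIL-2 + IL-21, whereas the 90th percentile was 3 and 15 UMIs. In the summed libraries without this step, the whole metallothionein and zinc transporter list made up 0.0456% and 0.169% of UMIs. Without cells of 10 or more *Mt1* and *Mt2* UMIs, an alternative added after the data were seen, *Mt1* had a log2 ratio of 1.46 and *Mt2* of 1.29. This removal took out 7.96% of sIL-2 cells and 23.2% of sIL-2 + IL-21 cells, chosen by UMIs of these same genes.

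Several of the remaining genes with the largest ratios encode surface molecules or cytokines. *Cd70*, the ligand of CD27, was at 11.4 CPM for sIL-2 and at 36.0 CPM for sIL-2 + IL-21, a log2 ratio of 1.65 (1.57 to 1.74). *Il1r2*, the decoy receptor for IL-1, was at 19.6 and 61.5 CPM, a log2 ratio of 1.65 (1.59 to 1.71). *Il23a*, the p19 subunit of IL-23, was at 6.72 and 18.6 CPM, a log2 ratio of 1.47 (1.36 to 1.58). Each was about 3 times as high with sIL-2 + IL-21. *Cd81*, a tetraspanin, was at 7.43 and 25.2 CPM, a log2 ratio of 1.76 (1.66 to 1.87). *Slc16a11*, a monocarboxylate transporter family member, was at 3.47 and 17.4 CPM, and *Exph5*, a Rab27 effector linked to exocytosis, was at 3.57 and 17.4 CPM, with log2 ratios of 2.32 and 2.29. *Mamdc2*, *Nebl* and *Zfp608* completed the named higher genes with log2 ratios of 1.60, 1.51 and 1.47 from levels below 10 CPM with sIL-2.

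**Figure D2:**
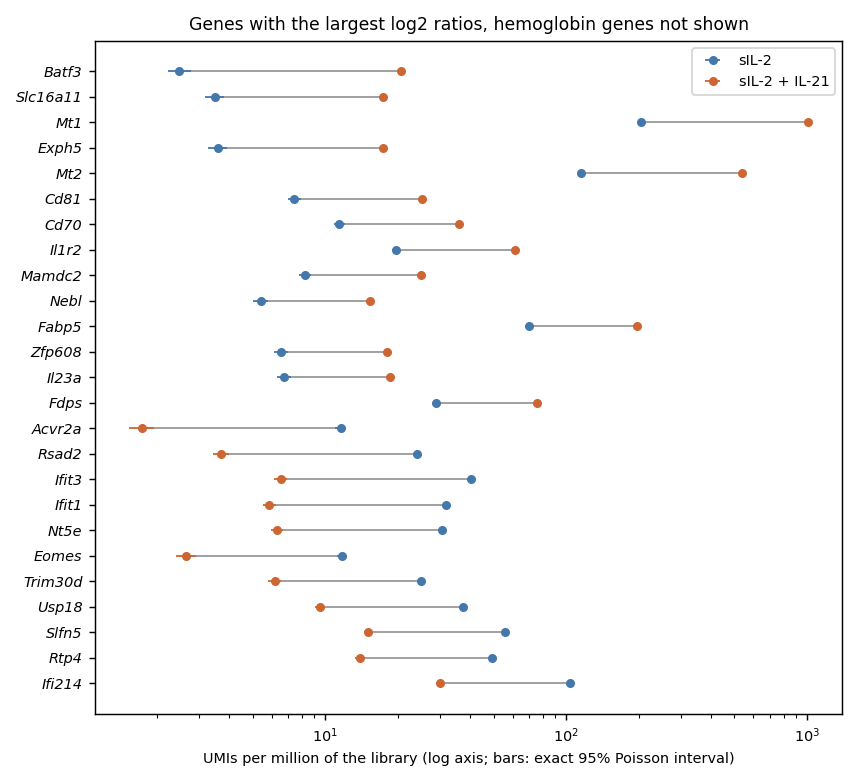
Levels with sIL-2 (blue) and sIL-2 + IL-21 (orange) of 25 of the genes with the largest log2 ratios, without the hemoglobin genes, in CPM on a log axis, with exact 95% Poisson intervals. *Mt1* and *Mt2* were the most abundant of the genes higher with sIL-2 + IL-21, and *Batf3* had the longest line.

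Genes of cholesterol synthesis were higher with sIL-2 + IL-21 along most of the pathway. Of 19 measured members of the sterol and fatty acid synthesis list, 13 were higher by a log2 ratio of 0.5 or more and 8 by 1 or more, none was lower by 0.5, and the median was 0.72 against -0.08 for all genes. *Hmgcs1*, which makes HMG-CoA, was at 30.3 and 62.6 CPM, a log2 ratio of 1.05. *Idi1*, the isomerase that makes dimethylallyl diphosphate, was at 39.1 and 98.9 CPM, a log2 ratio of 1.34. *Fdps*, farnesyl diphosphate synthase, was at 29.0 and 75.4 CPM, a log2 ratio of 1.38 (1.33 to 1.43). Further along, *Sqle* (11.6 and 24.1 CPM), *Cyp51* (35.8 and 72.9 CPM) and *Msmo1* (20.8 and 41.9 CPM) were also about 2 times as high.

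Genes of fatty acid synthesis differed little, and a gene of cholesterol export was lower. *Abcg1*, which exports cholesterol, was at 14.0 CPM for sIL-2 and at 4.67 CPM for sIL-2 + IL-21, a log2 ratio of -1.58. *Fasn*, *Acaca* and *Acly*, the enzymes of fatty acid synthesis, had log2 ratios of 0.24, -0.21 and -0.07. *Fabp5*, a fatty acid binding protein, was at 70.0 and 196 CPM, a log2 ratio of 1.49 (1.45 to 1.52). *Lgals1*, a galectin on the lipid list, was at 1622 and 2518 CPM, a log2 ratio of 0.63. *Fabp5* depended on which cells were counted, since its log2 ratio was 0.68 without cells of 10 or more cell cycle UMIs.

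Cell cycle genes were higher with sIL-2 + IL-21 throughout. All 35 S phase genes and all 38 G2 and mitosis genes had log2 ratios above 0, against 40.6% of all genes. The S phase list had a median of 0.83, with 30 members at 0.5 or more, and the G2 and mitosis list a median of 0.68, with 31 members at 0.5 or more. *Cdc6*, which loads the replicative helicase, was at 10.7 and 24.9 CPM, a log2 ratio of 1.22. *Rrm2*, the regulated subunit of ribonucleotide reductase, was at 50.9 and 105 CPM, and *Pclaf*, a PCNA-associated factor, was at 205 and 453 CPM, log2 ratios of 1.05 and 1.14. *Birc5*, survivin, was at 106 and 224 CPM, a log2 ratio of 1.07. *Cdt1* and *Mcm6*, which license replication origins, differed less, with *Cdt1* at 23.9 and 26.9 CPM and *Mcm6* at 56.1 and 67.4 CPM.

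Cells with many of these transcripts were more frequent with sIL-2 + IL-21. After drawing to 5000 UMIs, 94.9% of sIL-2 cells and 97.1% of sIL-2 + IL-21 cells held 3 or more UMIs of both lists together. At a cut of 10, added after the data were seen, the shares lay further apart. Of the cells, 37.3% with sIL-2 (36.1% to 38.4%) and 61.6% with sIL-2 + IL-21 (60.6% to 62.6%) reached it. These intervals treat cells as independent and do not cover differences between mice or libraries. This cut is a point on a continuous range, and 2006 and 1772 cells lay between 8 and 12 UMIs. Without the cells at or above it, the S phase list had a median log2 ratio of -0.11 and the G2 and mitosis list of 0.20. These medians cover only members still at 10 CPM or more in the remaining cells, so the members changed. Over all S phase members, ratios ran from -0.65 for *Cdt1* to 0.84 for *Cdc6*, and most were above 0. The S phase median of -0.11 is thus not that of the whole list. Over all G2 and mitosis members they ran from -0.37 to 1.44. The cells had been removed by UMIs of these same genes. The 481 and 907 cells too shallow to be drawn to 5000 UMIs were left out as well. The parts of depth and of cell cycle UMIs in what remained were not told apart. In the remaining 4567 and 3414 cells, 43 genes were higher and 58 lower by 1 or more, of which 29 and 51 were among the calls made on all cells. Interferon-stimulated genes then had a median of -0.87 and sterol genes of 0.52.

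Nuclear genes of oxidative phosphorylation were higher by a small amount in nearly every member. Of 43 measured, 41 had a log2 ratio above 0, against 40.6% of all genes, 8 reached 0.5 and none reached 1, with a median of 0.35. *Uqcr10* and *Ndufa4*, subunits of the respiratory chain, were at 162 and 249 CPM and at 264 and 403 CPM. Of the 43 genes, 37 were among the shortest 25%, whose own median was 0.10. The 13 mitochondrially encoded genes had a median of 0.11 and the 57 ribosomal protein genes a median of 0.10. Glycolysis genes had a median of -0.05 and hypoxia response genes of -0.08, and both medians changed sign under TMM scaling, to 0.05 and 0.025.

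Most granzymes and perforin were higher, while other members of the killing list were not. *Gzmc* was at 2386 CPM for sIL-2 and at 4674 CPM for sIL-2 + IL-21, a log2 ratio of 0.97, and *Gzmf* was at 636 and 1247 CPM, also 0.97. *Gzmb* was at 3449 and 5307 CPM and *Prf1*, perforin, at 179 and 272 CPM, log2 ratios of 0.62 and 0.61. *Gzmd*, *Gzme*, *Gzmf* and *Gzmg* are close copies of each other, so the split of UMIs among them is uncertain. *Gzmk*, a granzyme typical of memory-like cells, went the other way, at 27.8 and 13.6 CPM, a log2 ratio of -1.03. *Srgn*, the proteoglycan of the granule core, was at 2549.8 and 1694 CPM, *Fasl* at 131 and 94.3 CPM and *Nkg7* at 1351 and 1128 CPM. Over the 18 measured members, 9 were above 0, against 40.6% of all genes, and 9 below, and the median was 0.10.

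**Figure D3:**
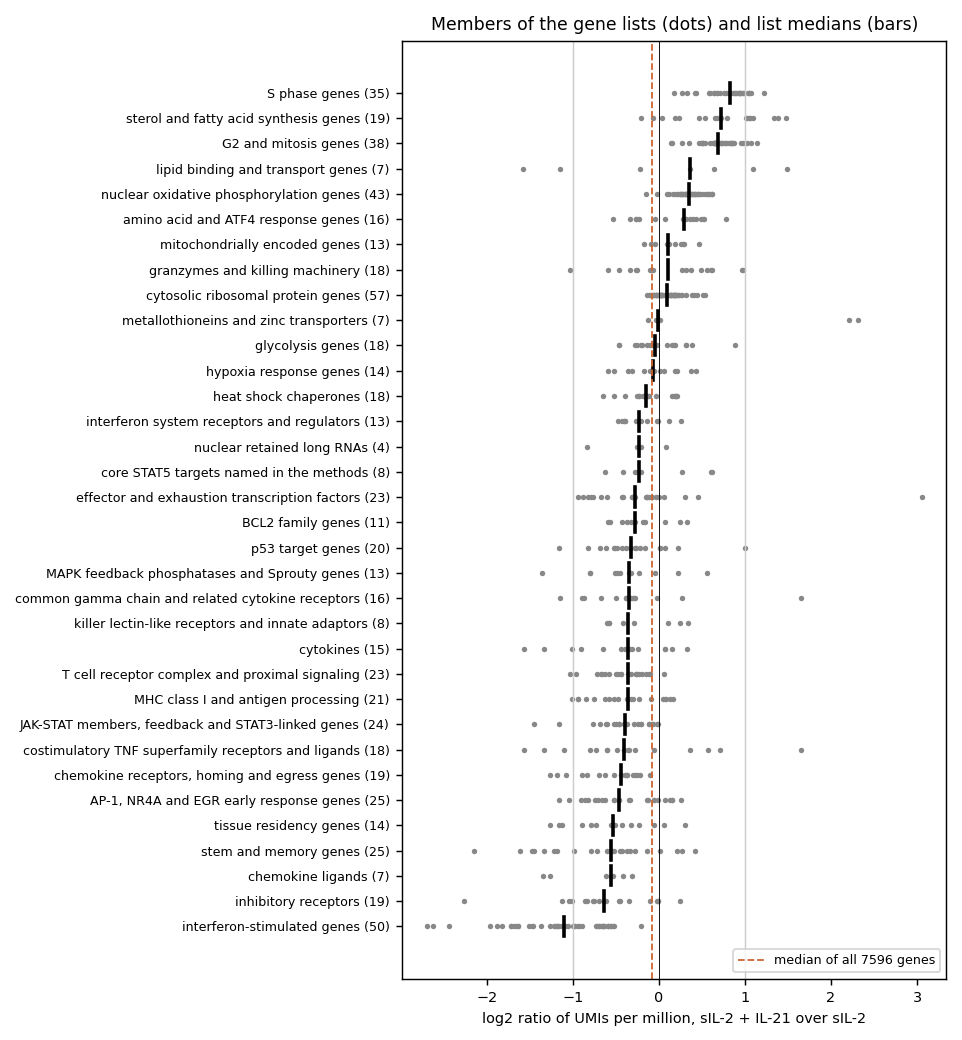
Log2 ratio of sIL-2 + IL-21 over sIL-2 (x axis) for the measured members of each gene list with at least 4 of them (dots, number in brackets), with the list median (black bar) and the median of all 7596 genes (dashed line, -0.08). S phase, sterol and mitosis genes lie to the right, and interferon-stimulated genes lie farthest to the left with a median of -1.10.

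Interferon-stimulated genes were the group most clearly lower with sIL-2 + IL-21. All 50 measured members had a log2 ratio below 0, against 59.4% of all genes, 49 were lower by 0.5 or more and 27 by 1 or more, with a median of -1.10. *Rsad2*, the antiviral enzyme viperin, was at 23.9 CPM for sIL-2 and at 3.70 CPM for sIL-2 + IL-21, a log2 ratio of -2.70 (-2.82 to -2.57). *Ifit3* was at 40.4 and 6.53 CPM and *Ifit1* at 31.7 and 5.86 CPM, log2 ratios of -2.63 and -2.44. These encode RNA-binding antiviral proteins. *Usp18*, which removes ISG15 from proteins and restrains interferon signaling, was at 37.3 and 9.52 CPM, a log2 ratio of -1.97. *Isg15* itself was at 142 and 45.6 CPM, a log2 ratio of -1.64. *Slfn5* and *Rtp4* had log2 ratios of -1.89 and -1.83, and *Irf7*, a transcription factor that amplifies the response, of -1.51. *Trim30d* and *Ifi214*, which were not on the list, had -2.01 and -1.80, and *Ifi214* belongs to a family of near-identical genes. The IL-2/21-Trikine library had *Rsad2* at 11.8 CPM and *Isg15* at 121 CPM, both between the levels of the other two.

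Interferon receptors and regulators off that list differed less. *Stat2* and *Irf9*, which transmit the signal and are also induced by it, were on the stimulated list, with log2 ratios of -0.74 and -0.64. Of 13 other receptors and regulators measured, none passed a log2 ratio of 0.5, and the median was -0.23. *Ifnar1* and *Ifnar2*, the receptor chains for type I interferon, were at 104 and 86.5 CPM and at 77.1 and 58.8 CPM. *Ifng*, the gene for interferon-gamma, was at 875 and 665 CPM, a log2 ratio of -0.39. Genes of MHC class I presentation, which interferon also induces, had a median of -0.37 over 21 members. *H2-K1* was at 2806 and 1879.6 CPM and *B2m* at 4777 and 3718 CPM, while the immunoproteasome genes *Psmb8* and *Psmb9* had log2 ratios of 0.05 and 0.09. UMIs of class I genes other than *B2m* may be shared among near-identical copies.

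The interferon difference was present at the low end of the cells and larger at the high end. At 5000 UMIs per cell, the 10th percentile, median and 90th percentile of interferon-stimulated UMIs were 6, 18 and 63 for sIL-2 and 4, 11 and 30 for sIL-2 + IL-21. Without drawing cells to equal depth, the list made up 0.471% and 0.256% of all UMIs. The motif in the windows of *Rsad2*, *Ifit3* and *Ifit1*, with 1, 2 and 2 matches, occurred in 25 of 37 list members with a window, 67.6%, and in 22 of 90 genes lower by 1 or more, 24.4%. Outside that list it occurred in 7 of 69 such lower genes, 10.1%. It occurred in 4.17% of all tested genes with a window, in 3.44% of all 32851 RefSeq windows, and in 3 of 50 genes higher by 1 or more, 6%. List members with the motif had a median log2 ratio of -1.17 and those without it of -1.07. The STAT element, searched as TTCNNNGAA, occurred in 7 of 90 lower genes, 7.78%, and in 8.19% of all tested, and overlapped the interferon motif in 11 of the tested genes.

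**Figure D4:**
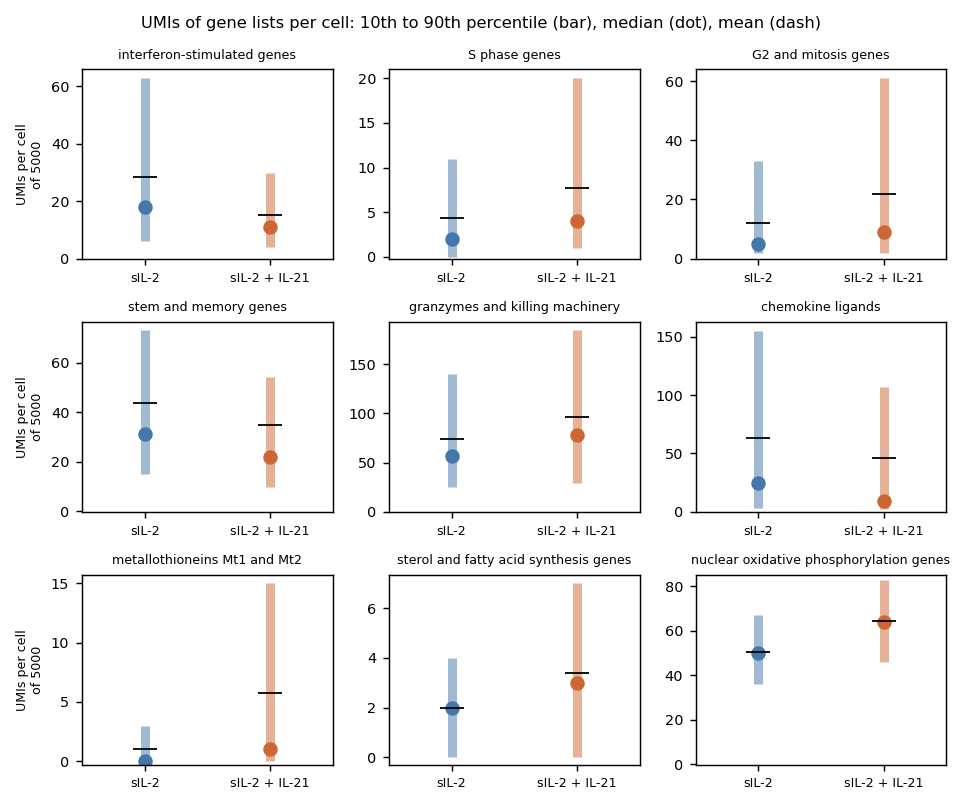
UMIs of 9 gene groups per cell after each cell was drawn down to 5000 UMIs, for 7279 cells with sIL-2 (blue) and 8891 with sIL-2 + IL-21 (orange): the bar runs from the 10th to the 90th percentile, the dot is the median and the dash the mean, and each panel has its own linear axis. The 90th percentile of interferon-stimulated UMIs was 63 for sIL-2 and 30 for sIL-2 + IL-21, and that of *Mt1* and *Mt2* was 3 and 15.

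Stem and memory genes were lower with sIL-2 + IL-21 in most members. Of 25 measured, 15 were lower by 0.5 or more and 7 by 1 or more, against 10.3% and 1.69% of all genes. None was higher by 0.5, and the median was -0.55. *Tcf7*, the transcription factor TCF1 of stem-like T cells, was at 60.3 CPM for sIL-2 and at 21.7 CPM for sIL-2 + IL-21, a log2 ratio of -1.47. *Bcl6* was at 37.8 and 13.8 CPM and *Tox* at 33.1 and 13.1 CPM, log2 ratios of -1.45 and -1.34. *Eomes*, a T-box factor of memory and exhausted cells, was at 11.8 and 2.64 CPM, a log2 ratio of -2.15. *Bach2*, a repressor that holds back effector differentiation, was at 536 and 269 CPM, a log2 ratio of -0.99. Not every gene of the list shared the direction. *Il7r*, the IL-7 receptor alpha chain, was at 223 and 267 CPM and *Myb* at 34.7 and 35.0 CPM. Of the 25 genes, 11 were among the longest 25%, and relative to the median of genes of like length the list median was -0.45.

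Among inhibitory receptors, *Pdcd1*, *Havcr2* and *Entpd1*, which the paper named for terminally differentiated cytotoxic T cells, were level. Most other members of the list were lower. *Pdcd1*, which encodes PD-1, was at 173 and 172 CPM, *Havcr2*, TIM-3, at 148 and 146 CPM and *Entpd1*, CD39, at 33.7 and 33.4 CPM. *Nt5e*, CD73, which with CD39 produces adenosine, was at 30.5 and 6.31 CPM, a log2 ratio of -2.27 (-2.37 to -2.18). *Cd101* was at 34.3 and 15.7 CPM, *Vsir*, VISTA, at 86.6 and 42.8 CPM and *Cd200r1* at 15.9 and 7.73 CPM, log2 ratios of -1.13, -1.02 and -1.04. *Lag3* was at 93.2 and 55.2 CPM and *Tigit* at 19.3 and 10.8 CPM. In all, 11 of 19 members were lower by 0.5 or more and 4 by 1 or more, against 10.3% and 1.69% of all genes, with a median of -0.64.

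Chemokine ligands, homing receptors and residency genes were lower as well. *Ccl5*, which draws T cells and myeloid cells, was at 2274 and 895 CPM, a log2 ratio of -1.34, and *Cxcl10*, an interferon target, at 61.4 and 25.4 CPM, a log2 ratio of -1.27. All 7 chemokine ligands measured were below 0. All 19 chemokine receptor, homing and egress genes were below 0 too, with a median of -0.44, where 59.4% of all genes were below 0. *Itga1*, the alpha chain of the collagen receptor CD49a, was at 64.3 and 26.6 CPM, *S1pr1*, the egress receptor, at 23.8 and 10.5 CPM, and *Cxcr3* at 49.2 and 23.3 CPM, log2 ratios of -1.27, -1.19 and -1.08. The tissue residency list had 8 of 14 members lower by 0.5 or more, against 10.3% of all genes. In it, *Cxcr6* was at 290 and 156 CPM and *Cd69* at 419 and 402 CPM. Without cells of 10 or more cell cycle UMIs, the chemokine ligand median was -0.0023, in place of -0.55.

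Costimulatory and cytokine genes held differences in both directions. *Tnfsf8*, the ligand of CD30, was at 365 and 123 CPM, a log2 ratio of -1.57, and *Tnfsf14*, LIGHT, at 25.4 and 10.1 CPM, a log2 ratio of -1.33. *Tnfsf11*, RANKL, was at 145 and 236 CPM, a log2 ratio of 0.70, on the same side as *Cd70*. *Tnf*, *Il2* and *Csf2* were at 38.7 and 31.1 CPM, 36.7 and 23.3 CPM, and 590 and 620 CPM. The cytokine list had a median of -0.36 over 15 members.

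The receptors and signaling genes of the cytokines used in preconditioning were lower by modest amounts. *Il21r* was at 157 CPM for sIL-2 and at 111 CPM for sIL-2 + IL-21, a log2 ratio of -0.50. *Il2ra*, *Il2rb* and *Il2rg*, the chains of the IL-2 receptor, had log2 ratios of -0.33, -0.30 and -0.38. *Stat3* was at 650 and 533 CPM and *Stat5a* at 86.3 and 56.6 CPM, log2 ratios of -0.29 and -0.61. All 24 members of the JAK-STAT list were below 0, against 59.4% of all genes, with a median of -0.40. Relative to the median of genes of like length, the JAK-STAT list median was -0.23. A shift of this size was not particular to cytokine signaling genes. The T cell receptor and proximal signaling list had a median of -0.37, with 22 of 23 members below 0. The killing list did not share it, with a median of 0.10. *Jak2* was at 182 and 81.2 CPM, a log2 ratio of -1.16. *Socs3*, a feedback inhibitor induced by STAT3, was at 12.5 and 7.81 CPM, a log2 ratio of -0.68. The core STAT5 genes named in the methods, which were chosen by the study, lay on both sides of 0. Among them *Gzmb*, *Prf1* and *Gzma* were above 0 and *Klrd1*, *Thy1*, *Nkg7* and *Ly6a* below it.

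Early response genes of T cell receptor signaling were lower in part. *Nr4a1*, an orphan nuclear receptor induced by antigen, was at 346 and 155 CPM, a log2 ratio of -1.16, and *Egr2* and *Egr3* had log2 ratios of -0.83 and -0.86. *Fos*, *Jun* and *Egr1* did not follow, at 100 and 120 CPM, 74.0 and 73.3 CPM, and 66.7 and 74.0 CPM. Over 25 members of the list the median was -0.47, with 11 lower by 0.5 or more, against 10.3% of all genes. *Spry1*, an inhibitor of the MAPK pathway, was at 20.4 and 7.94 CPM, a log2 ratio of -1.36. The T cell receptor and proximal signaling list had a median of -0.37 over 23 members, with *Cd8a* at 372 and 232 CPM, *Fyn* at 350 and 179 CPM and *Cd3e* at 724 and 601 CPM. *Cd8a* was lower although both libraries had been sorted on CD8. *Cdkn1a*, the cell cycle inhibitor p21, was at 484 and 274 CPM, a log2 ratio of -0.82, within a p53 target list whose median was -0.33. Lists of heat shock, BCL2 family and MAPK feedback genes had medians of -0.15, -0.28 and -0.35. The killer lectin-like receptor list had a median of -0.36, which was -0.10 without cells with markers of other types. That removal took out 43.6% of sIL-2 cells and 50.6% of sIL-2 + IL-21 cells. With Cst3, Pecam1 and Ighm left out of those markers, it took out 2.60% and 1.49%. The amino acid response list had a median of 0.30, which was -0.04 over genes of 50 CPM or more.

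*Acvr2a*, an activin receptor, was the named lower gene outside these groups. It was at 11.6 CPM for sIL-2 and at 1.73 CPM for sIL-2 + IL-21, a log2 ratio of -2.75 (-2.93 to -2.57), the largest on the lower side apart from the hemoglobin genes. The IL-2/21-Trikine library had 5.08 CPM.

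Most of the named genes also varied with *Mt1* and *Mt2* among the cells of each library, as they did with cell cycle genes. Cells drawn to 5000 UMIs were split by *Mt1* and *Mt2* UMIs within a library. In the sIL-2 library, 4835 cells with 0 such UMIs were set against 2444 with at least 1, and in the sIL-2 + IL-21 library, 2800 cells with 0 against 2400 with at least 5, so the sizes of the ratios cannot be compared between libraries. The high cells were deeper, with medians of 18306 against 11863 UMIs for sIL-2 and 23778.5 against 10898 for sIL-2 + IL-21, and the part of depth in what follows was not tested beyond drawing cells to equal totals. Of the other 13 named higher genes, 11 were higher in the high cells in both libraries, against 38.1% of 7590 tested genes. Of 11 named lower genes without hemoglobin, 10 were lower in both, against 41.2%. *Cd81*, *Nebl* and *Eomes* were the exceptions. The named genes were chosen by their ratios between these same libraries, which also differed in the UMIs used for the splits. Genes that vary with those UMIs could therefore be named more often. Shares of all genes are thus not a like comparison, here or in the splits below.

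Within the sIL-2 library, to whose cells no IL-21 was added, *Batf3* was at 0.620 CPM in the low cells and 2.45 CPM in the high cells, a log2 ratio of 1.98 (1.04 to 2.98). In the sIL-2 + IL-21 library it was at 3.14 and 26.8 CPM, a log2 ratio of 3.09 (2.63 to 3.58). *Gzmc* was at 841 and 2846 CPM in low and high cells with sIL-2, and at 1732 and 6202 CPM for sIL-2 + IL-21. Both genes were higher with sIL-2 + IL-21 among the low cells, while the high cells were cut at different numbers. The low cells held 0 *Mt1* and *Mt2* UMIs as counted after drawing to equal totals, so their metallothionein levels need not have been equal. They were 4835 of 7279 drawn cells with sIL-2 and 2800 of 8891 with sIL-2 + IL-21. Whether the *Batf3* and *Gzmc* differences were independent of metallothionein was therefore not tested. *Tcf7* was instead lower in the high cells. It was at 94.9 and 47.7 CPM with sIL-2 and at 62.5 and 5.25 CPM with sIL-2 + IL-21. *Pdcd1*, level between the libraries, was higher in the high cells of both, with log2 ratios of 0.82 and 0.57. *Mki67*, a marker of dividing cells, was higher in them too, at 0.71 and 0.59. When cells were split in the same way by S phase, G2 and mitosis UMIs, 13 of 15 named higher genes were higher in the high cells of both libraries, against 43.1% of 7506 tested genes, and 10 of 11 named lower genes were lower, against 32.7%. The parts of metallothionein and of cell cycle UMIs in these counts were not told apart. Counts in each split go by sign alone, and some ratios had intervals across 0. In the cell cycle split of the sIL-2 library, *Nt5e* was at -0.02 (-0.23 to 0.20) and *Cd70* at 0.11 (-0.34 to 0.56). In the split by *Mt1* and *Mt2*, *Fdps* and *Il1r2* were higher in the high cells of both libraries. Their log2 ratios were 1.13 and 1.74 for sIL-2 and 1.78 and 1.90 for sIL-2 + IL-21. In the split by cell cycle UMIs, *Fdps* was higher in the high cells, at 1.29 for sIL-2 and 1.61 for sIL-2 + IL-21. *Il1r2* was lower in them, at -0.38 and -0.46.

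**Figure D5:**
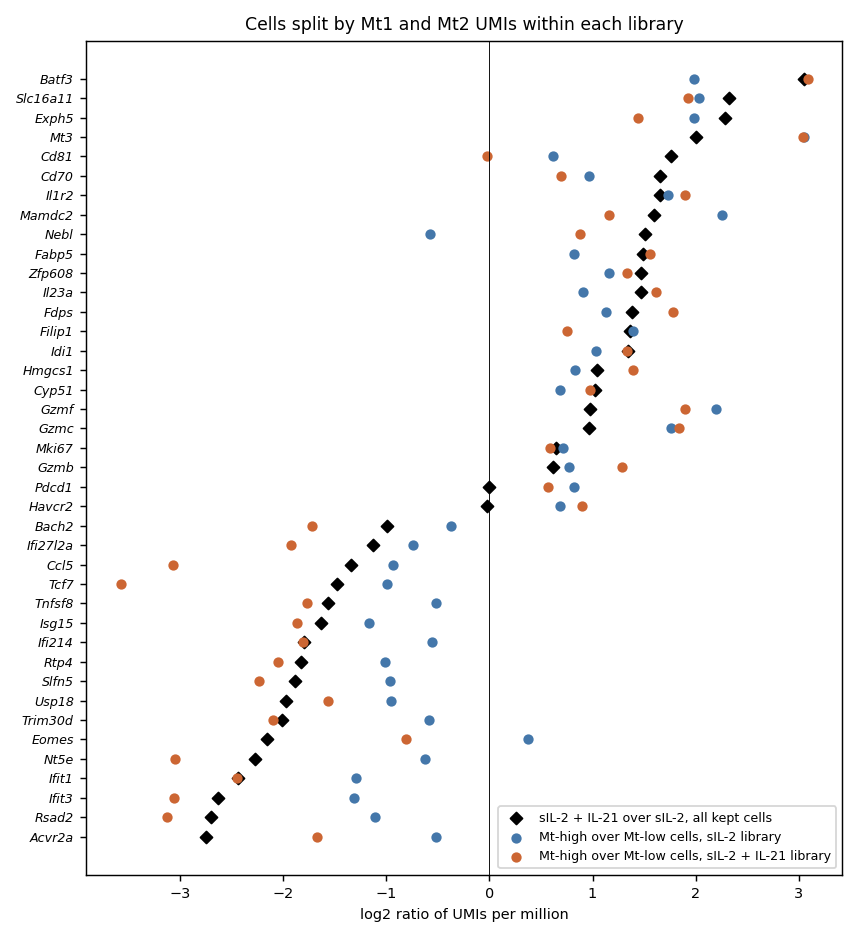
Log2 ratios (x axis) of genes between the libraries over all kept cells (black diamonds) and, within the sIL-2 (blue) and sIL-2 + IL-21 (orange) library, between cells high and low in *Mt1* and *Mt2* UMIs after drawing to 5000 UMIs. Genes higher with sIL-2 + IL-21 were mostly higher in the high cells of both libraries, *Cd81* and *Nebl* being exceptions among the named genes. Named genes lower with sIL-2 + IL-21 were mostly lower in the high cells, except *Eomes*. *Pdcd1* and *Havcr2* were near 0 between libraries but above 0 within each.

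A split by interferon-stimulated UMIs went the other way for most of the named higher genes. In the sIL-2 library, 2076 cells with at most 11 such UMIs were set against 1868 with at least 34, and in the sIL-2 + IL-21 library, 2683 cells with at most 7 against 2421 with at least 18. Of the 15 named higher genes, 13 were lower in the interferon-high cells of both libraries, against 40.2% of 7542 tested genes. Of the 5 named lower genes off the list, 3 were higher in both, against 43.0%. These were *Nt5e* and the interferon genes *Trim30d* and *Ifi214*. *Eomes*, with log2 ratios of -1.26 and 0.10, and *Acvr2a*, with 0.55 and -0.24, were mixed. *Mt1* had log2 ratios of -2.07 and -2.59 and *Gzmc* of -2.13 and -1.14, whereas *Tcf7* had 1.53 and 2.39. Here the high cells were the shallower ones, with medians of 10106 against 17165.5 UMIs for sIL-2 and 11101 against 20032 for sIL-2 + IL-21.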

How the data were processed

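Libraries were 10x Genomics 3' libraries of sorted tumor-infiltrating cells, 1 per group. Values deposited by the authors were unnormalized UMI counts, a matrix of genes by cells from Cell Ranger 9.0.0 (intronic reads included, GRCm39 reference by the methods, mm10 in the submitters' processing notes). The filter of the methods left 1 cell more with sIL-2 + IL-21 than the methods state. Doublets were not called. Counts were summed per library and scaled to CPM. Log2 ratios carry exact conditional binomial intervals and levels exact Poisson intervals, tested on simulated data. Gene lists and named genes were chosen with earlier results of these data known. Named genes were the 15 largest log2 ratios in each direction, without receptor segments and genes named only by a clone or model number, and list members. Gene length came from a GRCm38 annotation (99.5% of genes) and was used only for ranks. RefSeq promoter windows were matched by symbol, for 80.2% of genes. Alternatives covered scaling, cell and gene filters, depth and cell groups, and 5 of 16 were added after the data were seen. Python 3.11.15, numpy 2.4.6, scipy 1.17.1, pandas 2.3.3 and matplotlib 3.10.9 were used. Some genes are not reported here, although they count in the lists.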

Additional observations from a re-analysis of the deposited data

How the results depend on the processing

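No paired analysis was possible because each group had 1 library, and no replicate could be left out. Of the 30 named genes, none changed direction in any of 16 alternatives, and 26 kept their side of a log2 ratio of 1 in all that gave a value; *Nebl* fell to 0.89 after thinning, *Fabp5* to 0.50 and *Zfp608* to 0.81 without cells of 3 or more cell cycle UMIs, and Hbb-bt to -0.51 without the hemoglobin-rich cells. Genes higher by 1 or more (66) numbered 102 with TMM scaling and with median of ratios scaling, 128 with cells weighted equally, 142 with cells thinned to 5000 UMIs, 127 without the deepest 5% of cells, 151 without cells with markers of other types, and 43 without cells of 10 or more cell cycle UMIs. Genes lower by 1 or more (128) numbered 71 without cells with markers of other types, and 58 without cells of 10 or more cell cycle UMIs. Genes higher by 0.5 or more (429) numbered 669 and 656 with the 2 scalings, and 230 and 161 without cells of 3 or 10 cell cycle UMIs. Genes lower by 0.5 or more (784) numbered 504 and 514 with the 2 scalings and 434 without cells of 10 cell cycle UMIs. With a floor of 50 CPM the 4 counts were 24, 40, 161 and 387, on 3217 genes. With no filter on low genes they were 2679, 2794, 4343 and 5058 on 23115 genes, and the median size of the log2 ratio was 0.369. The causes of these shifts were not tested, except that fewer or more genes entered with another floor. Removal by cell cycle UMIs, at either cut, also left out the cells shallower than 5000 UMIs. Without cells of 3 or more cell cycle UMIs, which left 373 and 260 cells, the medians of the S phase, G2 and mitosis, and chemokine ligand lists turned to -0.27, -0.26 and 0.29, and S phase to -0.11 at 10 UMIs. Each of these medians covers only members still at 10 CPM or more in the cells left, so the members can differ from those in all cells. In those 373 and 260 cells, S phase members with a value ran from -0.90 to 1.01. G2 and mitosis members with a value ran from -1.64 to 3.39. In both lists, more of these members were above 0 than below it, so the negative medians are not those of the whole lists. Of the 35 list medians, 24 kept their side of a log2 ratio of 0.5 in all 16 alternatives. The stem and memory, inhibitory receptor and tissue residency medians kept it in 9, 10 and 7 of them. At their weakest these 3 medians were -0.355, -0.378 and -0.382, on the same side of 0. The removal of cells with markers of other types took out 43.6% and 50.6% of cells. With Cst3, Pecam1 and Ighm taken off those markers, 2.60% and 1.49% were removed and 72 genes were higher and 127 lower by 1 or more. Higher genes made up 58.4% of calls at 1 with cells weighted equally, 55.9% after thinning, 49.0% without the deepest cells and 68.0% without cells with markers of other types, against 34.0%.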

Other observations

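Some genes outside the lists were also higher or lower by a log2 ratio of 1 or more, and those named here were chosen after their values were seen. On the lower side, *Pmepa1*, a feedback gene of TGF-beta signaling, was at 23.3 CPM for sIL-2 and 7.25 CPM for sIL-2 + IL-21, and in the same order *Smad3*, a signal transducer of that pathway, at 29.5 and 12.7 CPM, and *Lrrc32*, which displays latent TGF-beta, at 20.3 and 8.81 CPM. The histone demethylase gene *Kdm6b* had a log2 ratio of -1.11, *Kdm7a* was at 75.6 and 33.9 CPM and *Kdm5b* at 57.2 and 27.3 CPM. No list of either kind was counted. The constant segments *Trgc1*, *Trgc2* and *Trgc4* of the gamma T cell receptor locus had log2 ratios of -1.43, -1.47 and -1.86. The delta constant segment *Trdc* differed less, at 54.7 and 36.8 CPM, a log2 ratio of -0.57.

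On the higher side, *Filip1*, which binds filamin A, was at 38.9 and 99.8 CPM, *Nrgn*, a calmodulin-binding protein best known from neurons, at 139 and 299 CPM, and *Prdx4*, a peroxiredoxin of the endoplasmic reticulum, at 17.0 and 43.4 CPM. *Gpr141*, an orphan receptor gene, was at 22.9 and 48.9 CPM, and *Cysltr1*, a leukotriene receptor, at 6.57 and 16.8 CPM. The 16 myeloid markers summed to 147 and 209 CPM, and to 42.3 and 27.3 CPM without Cst3, and their part in these values was not tested.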
